A study of Mus musculus with 8 samples.

Results

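The 10 genes described here are effectors and sensors of the integrated stress response, and were taken from the 43346 genes of the deposited table by their symbols. They were the transcription factors Atf3, Atf4 and Ddit3, the effectors Trib3, Asns, Chac1, Ppp1r15a and Sesn2, and the eIF2 kinases Eif2ak3 (PERK) and Eif2ak4 (GCN2). All 10 were found, and all 10 passed the filter on low counts, which left 20987 genes. RNA came from cortex and hippocampus of mice aged 1.5 months. The GFP group held 4 mice labelled with green fluorescent protein (GFP) alone, and the GFP-GR100 group held 4 mice labelled with GFP fused to 100 glycine-arginine repeats. Poly(GR) is a dipeptide repeat protein made from the expanded C9orf72 repeat of frontotemporal dementia and amyotrophic lateral sclerosis. Both constructs were built on an adeno-associated virus plasmid, and each group had 2 females and 2 males with 1 library per animal. The labels give a weight of cortex and hippocampus of 111.4 to 126.6 mg in GFP and 71.9 to 85.1 mg in GFP-GR100, without overlap, and its part in the differences between the groups was not tested. Mouse strain, route of delivery, the transgene's promoter and the cells it reached were not given in the sources used here.

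This stress response is a program that cells start when they are short of amino acids or heme, when proteins misfold in the endoplasmic reticulum, or when viral RNA is present. A small family of kinases senses these conditions and phosphorylates the translation factor eIF2, which slows protein synthesis as a whole but favours translation of the mRNA of Atf4, a transcription factor. Atf4 then raises genes for amino acid supply, redox balance and recovery of translation, and in prolonged stress genes linked to cell death. Atf3, a related transcription factor of the bZIP family, is among the genes raised downstream of Atf4, and it is also known to be induced by nerve injury, inflammation and DNA damage.

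Library totals lay between 65880460 and 89113010 counts. Levels are given as CPM, counts scaled to library size, and comparisons between genes as RPKM, which also divides by gene length. The markers of neurons, astrocytes, oligodendrocytes and other cell types of the forebrain were all present, with 0 markers at 0 counts throughout. Loci that carry ribosomal RNA sequence took 3.54% to 11.4% of counts in GFP, with both females above both males, and 2.76% to 9.83% in GFP-GR100, with both males above both females. In whole tissue, a change in the number of cells of a type and a change in RNA per cell cannot be told apart.

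In mm10 the other genes lie on chromosome 15 (Atf4, 80255184 to 80257540), 10 (Ddit3, 127290774 to 127296288), 2 (Trib3, 152337422 to 152344032, Chac1, 119351229 to 119354381, and Eif2ak4, 118388618 to 118475234), 6 (Asns, 7675169 to 7693254, and Eif2ak3, 70844515 to 70905245), 7 (Ppp1r15a, 45522916 to 45526268) and 4 (Sesn2, 132492032 to 132510501).

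Several of these genes are known targets of Atf4 through a composite site for C/EBP and ATF factors near their start. The 250 bases before the RefSeq start are shown for 4 of them, on build GRCm38.p6 and 5′ to 3′ along the gene, since Atf3 shares one motif with Asns and Chac1 and another with Ppp1r15a. Capitals mark matches on either strand to the composite motif TGATGNAA, which reads TTNCATCA on the other strand, or to the ATF/CRE motif TGACGTNA, which reads TNACGTCA.
Atf3, chr1:191183334-191183583, minus strand: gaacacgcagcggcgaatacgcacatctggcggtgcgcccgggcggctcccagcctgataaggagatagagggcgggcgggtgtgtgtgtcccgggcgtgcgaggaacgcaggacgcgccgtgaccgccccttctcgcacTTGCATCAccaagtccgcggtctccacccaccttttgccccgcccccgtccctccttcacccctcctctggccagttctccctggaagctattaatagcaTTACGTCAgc
Asns, chr6:7693210-7693459, minus strand: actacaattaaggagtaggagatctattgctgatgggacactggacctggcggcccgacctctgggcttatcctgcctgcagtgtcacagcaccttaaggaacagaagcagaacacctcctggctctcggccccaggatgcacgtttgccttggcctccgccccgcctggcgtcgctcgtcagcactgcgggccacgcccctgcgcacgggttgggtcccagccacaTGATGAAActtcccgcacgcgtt
Chac1, chr2:119350992-119351241, plus strand: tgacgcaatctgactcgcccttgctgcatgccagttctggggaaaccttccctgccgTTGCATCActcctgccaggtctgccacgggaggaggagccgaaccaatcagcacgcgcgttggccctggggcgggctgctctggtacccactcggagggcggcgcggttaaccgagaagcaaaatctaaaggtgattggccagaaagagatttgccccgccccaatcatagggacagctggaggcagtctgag
Ppp1r15a, chr7:45526269-45526518, minus strand: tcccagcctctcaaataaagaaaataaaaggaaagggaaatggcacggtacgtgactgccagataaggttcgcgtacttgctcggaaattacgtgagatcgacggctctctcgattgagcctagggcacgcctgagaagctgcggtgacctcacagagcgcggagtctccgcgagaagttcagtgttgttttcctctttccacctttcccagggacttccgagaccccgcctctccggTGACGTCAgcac

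Atf3 held the composite match TTGCATCA from base -110 to -103 and the ATF/CRE match TTACGTCA from base -10 to -3, counted from the start. Chac1 held the same composite letters as Atf3, from -193 to -186. Asns had TGATGAAA from -23 to -16, and Ppp1r15a had the full ATF/CRE palindrome TGACGTCA from -12 to -5. In Trib3 a composite match lay just after the start, from base 15 to 22 (chr2:152344028-152344057, minus strand: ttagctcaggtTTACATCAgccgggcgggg).

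All 10 genes had a RefSeq promoter of 300 bases, 250 before and 50 after the start, and 4 of the 10 held the composite motif, against 4.51% of 27025 genes with a RefSeq promoter. Both motifs together were present in 26 of these genes, of which Atf3 is one. AP-1 matches (TGANTCA, the same on both strands) were present upstream of Ddit3 (TGACTCA) and Eif2ak3 (TGATTCA), and in 8.97% of the genes. The RefSeq start of Atf3 lies 34706 bases inside the deposited gene model, chromosome 1 from 191170296 to 191218039 in mm10, so that the gene count does not separate this start from the distal one.

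Atf3 rose in GFP-GR100 brains, and the other 9 genes did not pass the test in either direction. The rise was 2.33-fold, with a 95% interval of 1.66 to 3.28. None of the other intervals reached the lower end of that of Atf3 on the log2 scale, 0.73, and the highest upper end among them was 0.27. The comparison asked whether Atf3 rises together with other genes that Atf4 controls or apart from them.

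Atf3 levels were 1.15, 1.65, 1.61 and 0.744 CPM in GFP 1 to 4 and 3.21, 2.79, 3.09 and 2.94 CPM in GFP-GR100 1 to 4. The lowest GFP-GR100 library lay above the highest GFP library, and the GFP-GR100 values were close together while GFP 4 was the lowest of all 8. Mean levels were 1.29 ± 0.427 (SD, n = 4) and 3.01 ± 0.182 CPM (SD, n = 4), and the log2 fold change was 1.22 (SE 0.23, adjusted p = 0.0105 by edgeR's quasi-likelihood test). Among all genes tested, 2.19% were called higher and 0.324% lower. Groups did not overlap for 5.03% of genes with GFP-GR100 higher and for 3.03% with GFP-GR100 lower. The counts behind the Atf3 levels ran from 60 in GFP 4 to 293 in GFP-GR100 1, and counting error alone was 12.9% of the value in the library with the fewest.

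**Figure D1:**
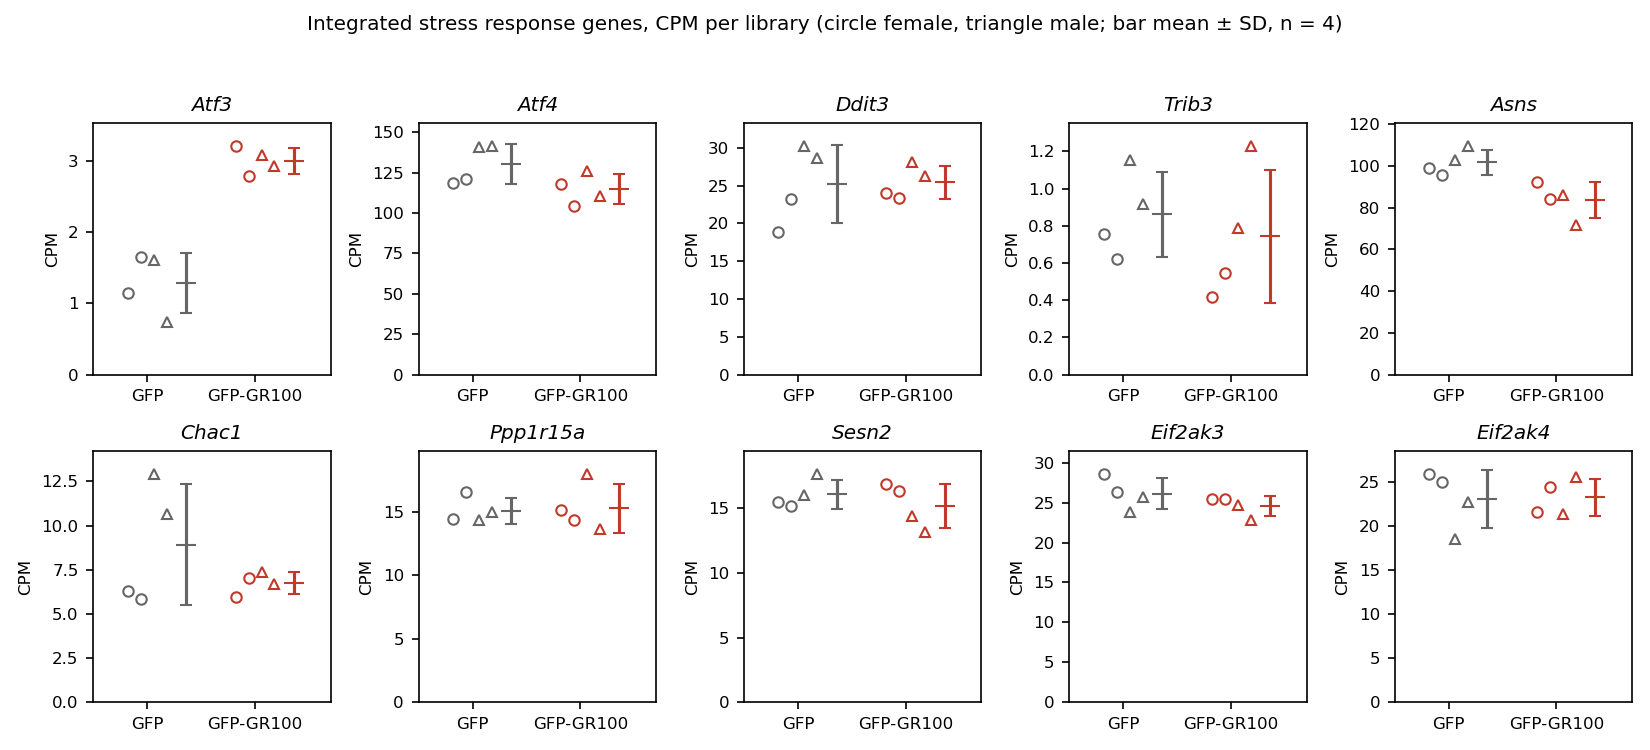
CPM per library of the 10 genes in GFP and GFP-GR100, each on its own axis from 0, where circles are females, triangles are males and bars show mean ± SD of 4 libraries. GFP-GR100 values of Atf3, from 2.79 to 3.21 CPM, lie above all GFP values, and those of Asns, from 71.7 to 92.4 CPM, lie below them; the other 8 genes overlap.

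The mRNA of Atf4 itself, the hub of the pathway, was at 118.5, 120.9, 140.8 and 141.2 CPM in GFP 1 to 4 and at 118.1, 104.4, 126.0 and 110.3 CPM in GFP-GR100 1 to 4. The groups overlapped, and the 2 GFP males were the highest. The log2 fold change was -0.18 (95% interval -0.36 to 0.00, adjusted p = 0.328 by edgeR). Since Atf4 is controlled mainly at the level of translation, its mRNA is not a measure of its protein. Per length it was the most abundant of the 10, at 74.0 ± 9.58 RPKM in GFP (SD, n = 4).

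Ddit3, which encodes CHOP, a bZIP factor of prolonged stress, was at 18.8, 23.2, 30.2 and 28.6 CPM in GFP and at 24.1, 23.3, 28.1 and 26.3 CPM in GFP-GR100. The GFP-GR100 values all fell within the range of the GFP values. The log2 fold change was 0.03, with a 95% interval of -0.18 to 0.24. Its gene model overlaps that of the tRNA synthetase Mars by 68 bases and that of Gm4189 by 15 bases on the opposite strand. Sesn2 overlaps Gm12981 by 6089 bases and Eif2ak3 overlaps Gm23346 by 136, both on the same strand. Ppp1r15a overlaps Tulp2 by 717 bases and Atf3 overlaps Gm24748 by 108, both on the opposite strand. Gm12981, Gm23346, Tulp2 and Gm24748 had at most 7, 6, 28 and 0 counts in a library. Whether counting used the strand was not given in the sources used here.

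Trib3, a pseudokinase that Atf4 and CHOP induce and that dampens Atf4 activity, was at 0.759, 0.621, 1.15 and 0.918 CPM in GFP and at 0.416, 0.545, 0.788 and 1.23 CPM in GFP-GR100. Males were above females in both groups, and the highest and the lowest library were both GFP-GR100. It was the least abundant of the 10 per length, at 0.399 ± 0.117 RPKM in GFP (SD, n = 4), and its interval was the widest, -0.81 to 0.27 around a log2 fold change of -0.27.

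Asns, the asparagine synthetase and a classic target of the composite site, was at 99.1, 95.5, 102.6 and 109.3 CPM in GFP and at 92.4, 84.1, 85.9 and 71.7 CPM in GFP-GR100. Each GFP-GR100 value lay below each GFP value, which held for 3.03% of all genes and is the opposite order to Atf3. The log2 fold change was -0.28 (SE 0.09), with an unadjusted p of 0.00988 and an adjusted p = 0.166 by edgeR, so that it was not called lower.

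Chac1, an enzyme that breaks down glutathione, was at 6.32, 5.82, 12.9 and 10.6 CPM in GFP and at 5.95, 7.03, 7.40 and 6.68 CPM in GFP-GR100. The 2 GFP males stood above all other libraries, and the remaining 6 overlapped. Its log2 fold change was -0.33 (95% interval -0.69 to 0.04, adjusted p = 0.362 by edgeR).

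The groups also overlapped for Ppp1r15a and Sesn2. Ppp1r15a (GADD34), which brings a phosphatase to eIF2 and so ends the response, was at 14.4, 16.5, 14.3 and 14.98 CPM in GFP and at 15.1, 14.4, 17.98 and 13.6 CPM in GFP-GR100. Sesn2, a leucine sensor that restrains mTORC1, was at 15.5, 15.2, 16.01 and 17.6 CPM in GFP and at 16.9, 16.3, 14.4 and 13.2 CPM in GFP-GR100. Log2 fold changes were 0.02 (95% interval -0.21 to 0.25) for Ppp1r15a and -0.09 (95% interval -0.31 to 0.14) for Sesn2.

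The kinase PERK, encoded by Eif2ak3 and activated by misfolded proteins in the endoplasmic reticulum, was at 28.6, 26.4, 23.8 and 25.7 CPM in GFP and at 25.5, 25.4, 24.7 and 22.8 CPM in GFP-GR100. GCN2, encoded by Eif2ak4 and activated by uncharged tRNA, was at 25.9, 25.1, 18.6 and 22.7 CPM in GFP and at 21.7, 24.4, 21.3 and 25.6 CPM in GFP-GR100. Groups overlapped for both, with log2 fold changes of -0.09 (95% interval -0.26 to 0.08) and 0.02 (95% interval -0.21 to 0.25). These kinases are activated by phosphorylation, which mRNA levels do not show.

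**Figure D2:**
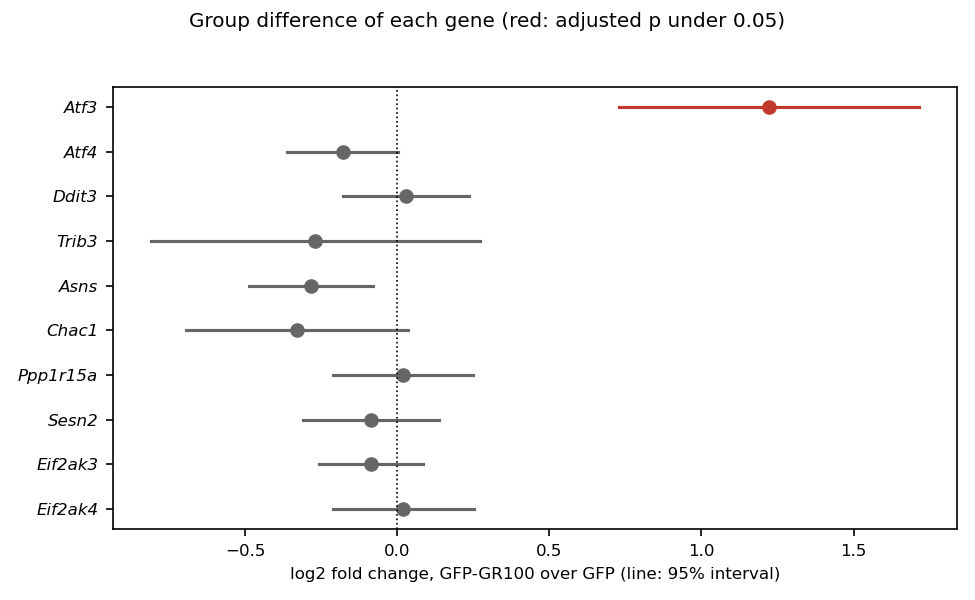
Log2 fold change (GFP-GR100 relative to GFP) for each of the 10 genes with its 95% interval. Atf3, in red, is the 1 gene called higher, at 1.22, and the intervals of the other 9 end at or below 0.27.

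In order of RPKM in GFP the genes ran Atf4, Asns, Ddit3, Chac1, Ppp1r15a, Eif2ak3, Sesn2, Eif2ak4, Atf3 and Trib3. The ranges of Chac1, Ppp1r15a, Eif2ak3 and Sesn2 overlapped from each to the next, as did those of Atf3 and Trib3. The remaining neighbours did not overlap. Atf3 was at 0.586 ± 0.202 RPKM in GFP and 1.43 ± 0.0784 RPKM in GFP-GR100 (SD, n = 4 each), and Asns, second in the order, at 36.3 ± 3.08 and 31.2 ± 3.37 RPKM.

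The difference between Atf3 and each other gene was tested within libraries, as the log2 ratio of their CPM values. Relative to Ddit3, Atf3 was higher in GFP-GR100 by 1.25 on the log2 scale, and relative to Ppp1r15a by 1.28. Relative to Asns the difference was 1.58 and relative to Chac1 1.61. For 8 of the 9 genes the ratio in every GFP-GR100 library lay above that in every GFP library. The two-sided exact permutation p was 0.0286 for these 8, the smallest that the 70 assignments allow, and 0.0321 after adjustment over the 9 comparisons. Against Trib3 the ratio rose by 1.59 but 1 GFP-GR100 library lay within the GFP range, and the exact permutation p was 0.0571 before and after adjustment. All 9 ratios share the same Atf3 values, which by themselves did not overlap between the groups. The 9 comparisons are therefore not independent results.

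**Figure D3:**
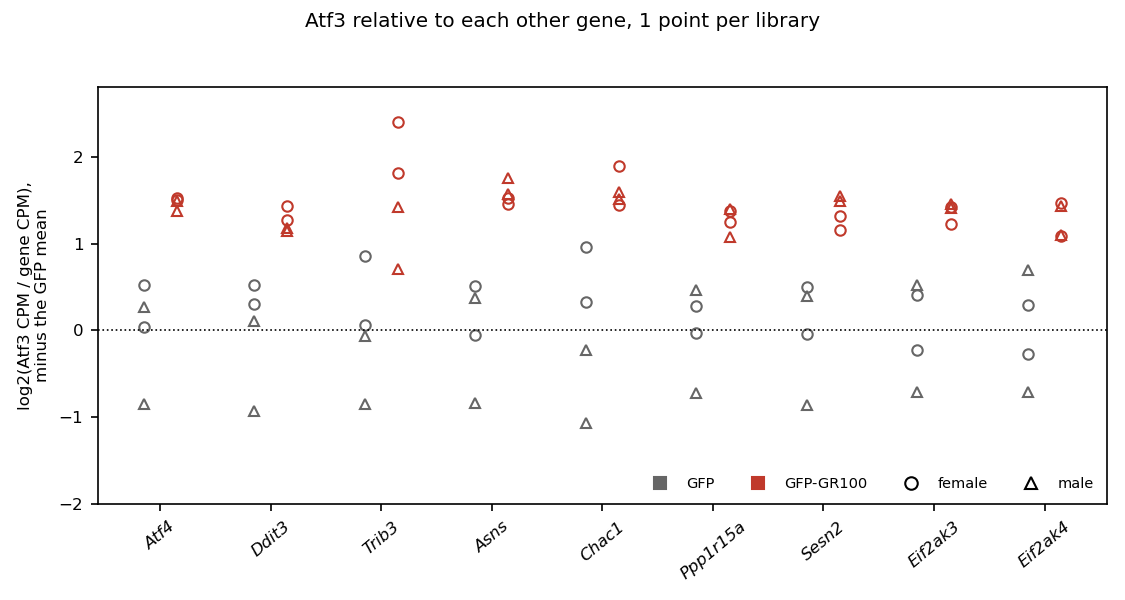
Log2 ratio of Atf3 CPM to the CPM of each other gene, minus the mean ratio in GFP, with 1 point per library (females as circles, males as triangles). GFP-GR100 libraries lie above all GFP libraries for 8 of the 9 genes, and overlap them for Trib3.

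Further Atf4 targets, from a list of 32 genes for amino acid synthesis and transport, one-carbon metabolism and stress factors, did not pass either. Of the 30 tested, 0 were called higher and 0 lower by edgeR, also 0 and 0 by DESeq2 and limma-voom. Those tools called 3.45% and 2.32% of all genes higher and 0.953% and 0.338% lower. An unadjusted p under 0.05 was reached by 2 that were higher and 6 that were lower, and by 8.23% and 7.37% of all genes. Their median log2 fold change was -0.10, against -0.02 for all genes tested. The smallest p-values belonged to Herpud1, a factor of endoplasmic reticulum protein degradation, from 59.2 ± 8.65 to 47.6 ± 3.08 CPM (adjusted p = 0.172 by edgeR), and to the glutamine transporter Slc38a2, from 107.8 ± 12.2 to 92.2 ± 8.999 CPM (adjusted p = 0.201 by edgeR). With the share of ribosomal RNA loci in the model, Herpud1, Jdp2 and Gpt2 were called lower, of which Jdp2 and Gpt2 are named after their values were seen. That model called 3.13% of all genes higher and 1.08% lower.

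Partners and late factors of the response were not called in either direction. Atf5, another bZIP factor raised under stress, was at 25.6 ± 6.53 and 23.6 ± 1.49 CPM (SD, n = 4), and Cebpg, a C/EBP partner of Atf4, at 40.7 ± 2.53 and 38.1 ± 2.66 CPM. Cebpb, an inducible C/EBP factor, was at 3.93 ± 0.813 and 4.77 ± 0.620 CPM. The mTORC1 inhibitor Ddit4 was at 52.4 ± 6.38 and 42.7 ± 7.69 CPM, and the stress factor Nupr1 at 5.39 ± 1.02 and 4.78 ± 0.704 CPM. The secreted stress hormones Gdf15 and Fgf21 were below the filter, with at most 14 and 6 counts in a library. Adjusted p ran from 0.295 for Ddit4, which was lower at an unadjusted p of 0.0403, to 0.769 for Atf5 by edgeR.

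Aminoacyl-tRNA synthetases, which charge tRNAs for translation, are known targets of Atf4. Of 12 measured, 0 were called in either direction by edgeR, DESeq2 or limma-voom, 11 had a log2 fold change below 0 and 7 were lower at an unadjusted p under 0.05, which 7.37% of all genes were. The median was -0.21, against -0.02 for all genes, of which 54.6% were below 0. The seryl-tRNA synthetase Sars was at 170.6 ± 15.97 and 145.0 ± 7.32 CPM (SD, n = 4, adjusted p = 0.229 by edgeR).

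Among the eIF2 kinases, the one that rose was Eif2ak2 (PKR), which binds double-stranded RNA and is itself induced by interferon. It went from 8.44, 6.13, 3.996 and 5.87 CPM in GFP to 22.2, 26.5, 24.2 and 24.2 CPM in GFP-GR100, a 4.05-fold rise (log2 fold change 2.02, SE 0.17, adjusted p = 7.96e-05 by edgeR). Every GFP-GR100 library was above every GFP library, as for 5.03% of all genes. Eif2ak1 (HRI), which senses heme and mitochondrial stress, was at 91.6 ± 2.84 and 78.0 ± 5.55 CPM without overlap of the groups, but was not called (log2 fold change -0.23, adjusted p = 0.197 by edgeR). Groups separated in that direction for 3.03% of all genes. Eif2ak2 was the 1 gene called among 19 further members of the eIF2 machinery, against 2.19% of all genes called higher and 0.324% lower. These 19 cover eIF2 and eIF2B subunits, phosphatase subunits and kinase regulators. Their median log2 fold change was -0.12, and 16 were below 0, as were 54.6% of all genes. At an unadjusted p under 0.05, 1 was higher and 3 were lower, against 8.23% and 7.37% of all genes.

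The other arms of the unfolded protein response start from the sensors Ire1 and Atf6. Of 19 genes downstream of Ire1 and Atf6 or of these sensors, 0 were called higher and 4 lower, against 2.19% and 0.324% of all genes, with a median log2 fold change of -0.43. The 4 were the folding chaperones Hspa5 (BiP), Hsp90b1 and Calr and the secreted protein Manf. Hspa5 was at 267.5, 281.9, 353.3 and 490.3 CPM in GFP and at 233.5, 177.6, 188.6 and 182.1 CPM in GFP-GR100 (log2 fold change -0.80, SE 0.17, adjusted p = 0.0456 by edgeR). GFP 4 was the highest library. In females and males, log2 fold changes were -0.42 and -1.19 for Hspa5 and -0.25 and -0.92 for Calr. They were -0.30 and -0.57 for Hsp90b1 and -0.36 and -0.78 for Manf. By edgeR all 4 were called lower in males, where 3.78% of all genes were, and none in females, where 0.0524% were. The difference between sexes passed for none of them (lowest adjusted p = 0.101 by edgeR, for Calr). Of the 19, 1 was higher and 15 were lower at an unadjusted p under 0.05, against 8.23% and 7.37% of all genes. The count of genes called lower was 0 without GFP-GR100 2, without GFP-GR100 3 and on RPKM values, where 0.0895%, 0.0894% and 0.152% of all genes were called lower. It was 1 without GFP 3, without GFP 4 and with no sex term (0.361%, 0.173% and 0.167% of all genes), and 2 without GFP-GR100 4 (0.312%). It was 10 without GFP-GR100 1 and by DESeq2 (0.300% and 0.953%), and 12 when the filter was dropped or the ribosomal RNA share added (1.12% and 1.08%).

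**Figure D4:**
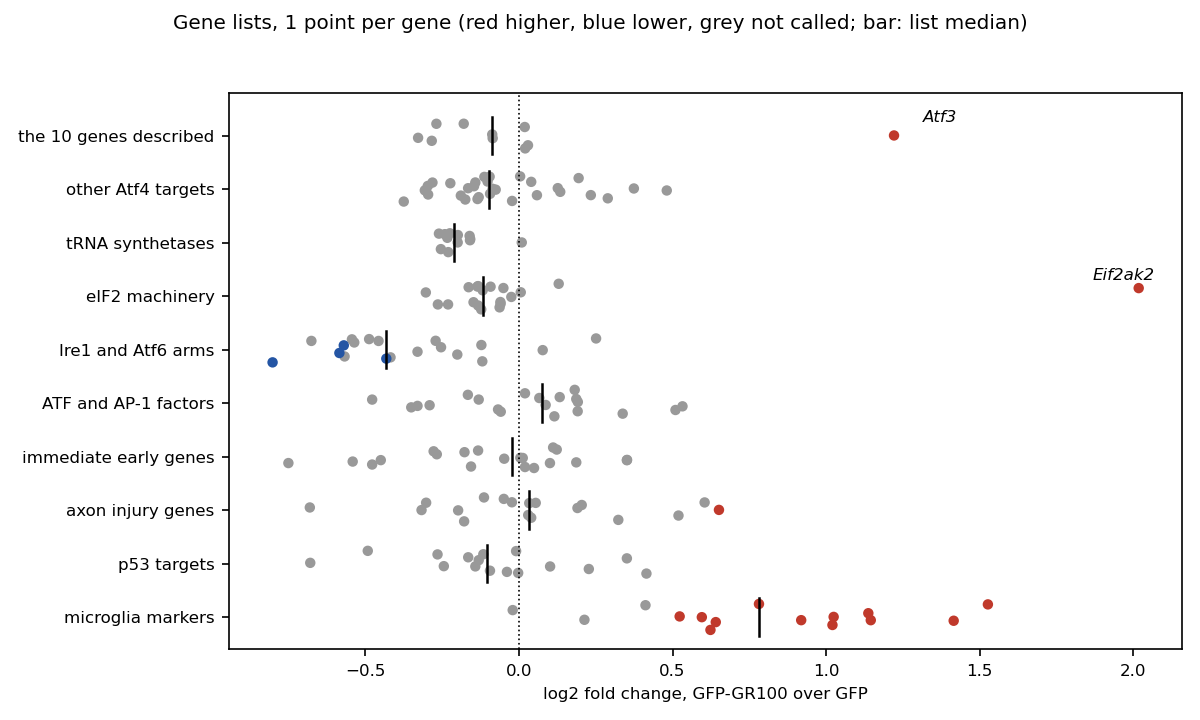
Log2 fold change (GFP-GR100 relative to GFP) for each tested gene of 10 lists, with called genes in red (higher) or blue (lower) and the list median as a bar. Atf3 at 1.22 and Eif2ak2 at 2.02 stand apart from the other genes of their lists, and the 30 further Atf4 targets lie between -0.38 and 0.48.

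Other settings in which Atf3 is known to rise were looked at through their own genes. Of 20 ATF, AP-1 and C/EBP factors, 0 were called by edgeR, and 2 passed an unadjusted p under 0.05 as higher and 3 as lower. The dimer partner Jun had a log2 fold change of 0.13 (adjusted p = 0.544 by edgeR). The myeloid factor Cebpa was at 10.1 ± 1.42 and 14.4 ± 1.91 CPM (SD, n = 4) with an adjusted p = 0.0586 by edgeR. It was called higher in 7 of 17 alternatives, among them DESeq2, no filter, and the fits without GFP 3 or without GFP-GR100 4. Across the 17, 1.43% to 3.64% of all genes were called higher. Among 20 immediate early genes, which neuronal activity induces, 0 were called by edgeR. An unadjusted p under 0.05 was reached by 0 higher and 2 lower genes, against the same shares of all genes. DESeq2 called 1 lower, Bdnf, a neurotrophin (31.6 ± 6.49 and 21.8 ± 4.53 CPM), and 0.953% of all genes lower.

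Of 18 tested genes that rise after axon injury, 1 was called higher and 0 lower by edgeR, against 2.19% and 0.324% of all genes. The 1 was Csf1, a growth factor for microglia, from 18.5 ± 0.987 to 29.1 ± 2.16 CPM (SD, n = 4, adjusted p = 0.00114 by edgeR). An unadjusted p under 0.05 was reached by 4 higher and 3 lower genes, against 8.23% and 7.37% of all genes. DESeq2 also called Rest higher (log2 fold change 0.53) and Hspb1 lower (-0.67), against 3.45% and 0.953% of all genes. Gap43, Sox11 and Gal, which mark regenerating neurons, had log2 fold changes of -0.11, 0.19 and 0.03, and Sprr1a had at most 8 counts in a library. Among 16 p53 targets 0 were called by edgeR. An unadjusted p under 0.05 was reached by 1 higher and 4 lower genes, against 8.23% and 7.37% of all genes. The cell cycle inhibitor Cdkn1a was at 29.2 ± 8.75 and 17.8 ± 1.84 CPM (adjusted p = 0.0976 by edgeR), and was called lower by DESeq2.

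Microglial markers, from the phagocytes that live in brain tissue, moved in the same direction as Atf3. Of 15 markers 12 were called higher and 0 lower by edgeR, against 2.19% and 0.324% of all genes. The 15 had a median log2 fold change of 0.78. Their summed level was 530 to 793 CPM in GFP and 1003 to 1171 CPM in GFP-GR100, and 0 of the 15 were at 0 counts. Trem2, a lipid-sensing receptor, had a log2 fold change of 1.42 and Cx3cr1, the fractalkine receptor, one of 0.64. The summed level of 12 monocyte and neutrophil markers was 16.4 to 36.1 CPM in GFP and 40.04 to 58.6 CPM in GFP-GR100, with 2 of 8 tested called higher. The 2 were Csf3r and Plac8. Ccr2, Ly6c2, S100a8, S100a9, Ngp and Lyz2 were not called, though all 8 had a log2 fold change above 0. Ly6g, Mmp8, Camp and Retnlg were below the filter. Of 10 astrocyte markers 1 was called higher, Gfap, with sums of 4288 to 4914 and 4598 to 5567 CPM. Of 12 choroid plexus and ependymal markers 3 were called lower, with sums of 156 to 403 and 51.6 to 108 CPM. Neuron, oligodendrocyte and vascular lists had 0 called genes by edgeR. At an unadjusted p under 0.05 these had 0, 0 and 1 genes higher and 2, 5 and 2 lower, of 15, 10 and 10. Among all genes 8.23% were higher and 7.37% lower at that threshold. DESeq2 called 2 oligodendrocyte genes lower and 1 vascular gene in each direction, and 3.45% of all genes higher and 0.953% lower. The part of any of these cell types in the Atf3 difference was not tested.

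Gene profiles nearest to that of Atf3 were sought among 16452 other genes with a mean of at least 1 CPM, as the smallest Euclidean distance of centred log2 CPM over the 8 libraries. The 5 nearest were Gpnmb (distance 0.488), Adora3 (0.565), Plscr2 (0.569), Gli1 (0.587) and Igsf6 (0.631). Gpnmb, a glycoprotein of lysosome-rich phagocytes, went from 2.87 ± 0.883 to 6.63 ± 0.978 CPM (SD, n = 4), and Adora3, an adenosine receptor, from 1.06 ± 0.269 to 2.24 ± 0.301 CPM. Plscr2 is a phospholipid scramblase family member, Gli1 a transcription factor of hedgehog signalling and Igsf6 a receptor of myeloid cells. Since these 5 were chosen for a profile like that of Atf3, their difference between groups follows from the choice and is given with no test.

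Males and females were compared because several of these genes split by sex within GFP. For 6 of the 10 genes (Atf4, Ddit3, Trib3, Asns, Chac1 and Sesn2) both GFP females were below both GFP males, and for Eif2ak3 and Eif2ak4 both males were below both females. Atf3 and Ppp1r15a overlapped between the sexes. In GFP-GR100 the females were lower for 2 genes, Ddit3 and Trib3, and the males for 2, Sesn2 and Eif2ak3. The share of all genes that split by sex in this way was not counted, so the split does not set these 10 genes apart. Ribosomal RNA loci took 11.4% and 6.74% of counts in GFP 1 and 2, the females, and 3.8% and 3.54% in GFP 3 and 4, and the part of this share in the split was not tested.

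Atf3 had a log2 fold change of 1.09 (SE 0.32) in females and 1.35 (SE 0.32) in males, with a difference of 0.26 (SE 0.45, adjusted p = 0.820 by edgeR). Its adjusted p by edgeR was 0.219 in females and 0.0249 in males. Of all 20987 genes tested, 174 were called higher in females and 1166, or 5.56%, in males. Chac1 had a log2 fold change of 0.10 (SE 0.16) in females and -0.74 (SE 0.16) in males, and Asns of -0.14 and -0.43 (SE 0.11 each). Both were called lower in males (adjusted p = 0.0172 and 0.0354 by edgeR), where 3.78% of all genes were, against 0.0524% in females. The difference between sexes had an unadjusted p of 0.00314 for Chac1, but did not pass (adjusted p = 0.128 by edgeR), and 16.4% and 0.0524% of all genes passed before and after adjustment. With no filter on low counts the Chac1 difference passed (adjusted p = 0.0244 by edgeR). Ribosomal RNA loci took 11.4% and 6.74% of counts in GFP females and 3.2% and 2.76% in GFP-GR100 females. In males the order was reversed, with 3.8% and 3.54% in GFP and 8.77% and 9.83% in GFP-GR100. The part of this share in the differences within and between the sexes was not tested.

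The Atf3 call held in each of the 17 alternatives run, with log2 fold changes from 1.04 to 1.46 and its highest adjusted p, 0.0490 by edgeR, without GFP-GR100 3. In those 17 alternatives 0 of the other 9 genes were called in either direction, while 1.43% to 3.64% of all genes were called higher and 0.0894% to 1.12% lower. Trib3 was not tested in the one that asks for a mean of at least 1 CPM.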

How the data were processed

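Gene expression was measured by RNA sequencing of 8 libraries, 4 GFP and 4 GFP-GR100. The authors deposited whole-number counts per gene. The tools named are CASAVA, TopHat2 (version 2.1.0), DESeq2 and R (version 3.4.1), with genome build mm10, per the submitters' processing notes. RPKM values deposited by the authors, on the listed gene lengths, were used for levels between genes. Counter, annotation release and strand setting were not given in the sources used here. Members (10 genes), all gene lists and the alternatives were chosen with earlier results of these data known. Replicates were numbered in accession order, and each library is a separate labelled animal.

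Counts were tested in R version 4.3.3 with edgeR (version 4.0.16), using filterByExpr (minimum count 10, minimum total 15), TMM scaling and the robust quasi-likelihood test with sex and group. P-values were adjusted over 20987 genes by Benjamini-Hochberg at 0.05. Standard errors (SE) and 95% intervals were derived from each fold change with its F statistic. Sex differences came from the product of sex and group. Ratios to Atf3 used two-sided exact permutation tests over the 70 assignments. The fit was tested on simulated data. Alternatives were median-of-ratios scaling, no filter, a mean of at least 1 CPM, DESeq2 (version 1.42.0), no sex term, limma (version 3.58.1) as voom on counts or as trend on log2 of RPKM plus 0.1, the share at ribosomal RNA loci as a covariate, and leaving out libraries.

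Named genes were the 10 members, 9 fixed pathway genes, up to 4 called genes of each list or the 2 with the smallest p where none was called, and the 5 profiles nearest to Atf3. Other genes are named for context after their values were seen. Promoters and starts came from RefSeq on GRCm38.p6, and strands from GENCODE release M21. Of the 10 gene models, 9 had the same position in M21, and Atf4 did not.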

Additional observations from a re-analysis of the deposited data

Results flagged for a closer look

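In 106 pairs of gene and group examined, 5 held a library far from the other 3, where chance flags about 1 group in 20. None of these was among the 10 stress response genes. In GFP 3 the level was high for Trem2 (18.5 CPM, the other 3 at 12.7 to 13.4), Gfap (332 against 200 to 209 CPM), Mog (139.5 against 97.6 to 103 CPM) and Csf3r (8.47 against 5.67 to 5.89 CPM). GFP 4 was low for Igsf6 (0.682 against 1.37 to 1.51 CPM).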

How the results depend on the processing

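Atf3 kept its direction and call in all 17 alternatives, and its log2 fold change ran from 1.04 to 1.46 when single libraries were left out. Those runs gave 1 of the 10 genes called higher and 0 lower. The genes called higher among all genes numbered 460 at first, 1168 with no filter, 724 with DESeq2 and 304 to 514 with 1 library left out. Genes called lower numbered 68 at first, 361 with no filter, 36 with a mean of at least 1 CPM, 200 with DESeq2, 32 on RPKM, 35 with no sex term, 226 with the ribosomal RNA share, 115 without GFP 3 and GFP-GR100 4, and 19 to 77 with 1 library left out. The cause of these shifts was not tested.

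The rise of Atf3 relative to the other genes with 1 library left out ran from 1.19 to 1.65 for Atf4, 0.94 to 1.43 for Ddit3, 1.30 to 1.88 for Trib3, 1.30 to 1.75 for Asns, 1.26 to 1.93 for Chac1, 1.04 to 1.43 for Ppp1r15a, 1.09 to 1.54 for Sesn2, 1.14 to 1.55 for Eif2ak3 and 1.03 to 1.50 for Eif2ak4. With 7 libraries the exact permutation p cannot go below 0.0571, so that these runs could not pass.

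Fold changes near 0 changed sign in some runs, none of them called. With 1 library left out they ran from -0.0563 (without GFP 1) to 0.0963 for Ddit3, from -0.0862 (without GFP-GR100 3) to 0.0772 for Ppp1r15a, which was at -0.0028 without GFP 1, from -0.1362 to 0.0076 (without GFP 4) for Sesn2, from -0.068 (without GFP-GR100 4) to 0.1118 for Eif2ak4, which was at -0.04 without GFP 3, and from -0.2205 to 0.0145 (without GFP 3) for Atf5, which was at 0.0092 without GFP-GR100 4. Without both GFP 3 and GFP-GR100 4 Sesn2 was at 0.01, Eif2ak4 at -0.0964, Atf5 at 0.0871 and Nupr1 at 0.0008. Further Atf4 targets called were 1 higher and 1 lower with no filter and 0 and 3 with the ribosomal RNA share. Among all genes 3.64% were called higher and 1.12% lower with no filter, and 3.13% and 1.08% with that share. Trib3 was below the filter of 1 CPM and has no value there. With 60 to 293 counts for Atf3 and 38 to 104 for Trib3, depth limits these 2 genes most. No paired analysis was possible because the labels give no replicate numbers shared by the groups.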

Other observations

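Promoter motifs were set beside the group difference across all genes, as a description. Of 13012 tested genes with a RefSeq promoter, 2.58% were called higher and 0.338% lower. Among the 372 of these with the composite motif, 24 were called higher, which is 6.45%, and 2 lower. Among the 650 with the ATF/CRE motif, 6 were called higher, which is 0.923%, and 2 lower. Median log2 fold changes were -0.02 and -0.06, against -0.03 for all 13012. Atf3 was the 1 gene called among 16 tested genes with both motifs. The composite motif was present in 1219 of 27025 genes, of which 372 passed the filter on low counts. For the ATF/CRE motif 650 of 908 passed, and for all genes with a RefSeq promoter 13012 of 27025. A gene expressed in GFP-GR100 alone can pass the filter, and the part of the filter in these shares was not tested. The base composition of these promoters was not examined.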
